A study of Mus musculus with 3 samples.

Results

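CD8-negative T cells of the blood were examined 3 days after burn/tenotomy, a mouse injury in which a burn of the back is combined with transection of the Achilles tendon. The blood library came from unsorted cells of C57BL/6J mice at 10 weeks of age, with the mononucleated cells taken from a Ficoll gradient and red blood cells lysed before 3′ single-cell RNA-Seq. It held 2241 cell barcodes with 22542581 unique molecular identifiers (UMIs, each the tag of 1 captured RNA molecule) and a median of 8316 UMIs per barcode. All mice behind the library were injured, no uninjured blood was analysed here, and each tissue had 1 library from a number of mice that the sources used here do not give, so no test was made and no value has a replicate check.

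The cells were chosen by their own UMIs. Of 2241 barcodes, 2184 passed a filter of 200 or more detected genes with no more than 20% of UMIs from mitochondrial genes. Of these, 751 held at least 3 UMIs of *Cd3d*, *Cd3e*, and *Cd3g* together, 379 of them had no UMI of *Cd8a* or *Cd8b1*, 336 also had none of the NK cell genes *Klre1*, *Klrb1c*, and *Ncr1*, and 320 also had none of the B cell genes *Cd79a* and *Ms4a1*. A last limit of less than 5% of UMIs from *S100a8* and *S100a9* left 319 cells, which were 14.6% of the blood cells past the filter (exact binomial 95% interval 13.2% to 16.2%). The levels of these 12 genes chose the cells and are given only as a description. Across the series, 9002 of 9725 barcodes passed the same filter, and the same rule found 8 of 4978 cells at the tendon injury site (0.161%) and 6 of 1840 in bone marrow (0.326%). With fewer than 50 cells at these sites, no gene was compared between tissues. The blood library shared 6 barcodes with the tendon library and 2 with the bone marrow library, and 0 of the shared barcodes were among the 319 cells.

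T cells recognize peptides through a receptor that signals through the CD3 chains. Mature cells are divided into a CD8 lineage, which reads peptides on MHC class I and includes killer cells, and a CD4 lineage, which reads MHC class II and includes helper and regulatory cells. Most T cells in blood are naive cells that recirculate between blood and lymphoid organs, with smaller numbers of effector, memory, and FOXP3-expressing regulatory cells, and a lack of CD8 also fits γδ T cells and some NKT cells.

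The CD8-negative T cells had a median of 7945 UMIs (range 983 to 30471) and 1849 detected genes. They were set beside 3 other blood populations of the same library, namely 314 CD8 T cells (the same rule but at least 2 UMIs of *Cd8a* and *Cd8b1*, median 9925.5 UMIs), 132 NK cells (median 6077 UMIs), and 366 B cells (median 5096 UMIs). A level is the number of UMIs of a gene for every 1000000 UMIs of its population (CPM), with an exact Poisson 95% interval in parentheses where given. Ratios are log2 ratios of CPM, whose 95% intervals come from an exact binomial interval on the division of UMIs between both populations. None of these intervals holds more than counting error. For the 319 cells, 3 UMIs are worth 1.18 CPM, which is the level that a count of 0 allows, and 0 cells with a UMI allow a share of up to 0.955% of CD8 T cells, 2.27% of NK cells, and 0.820% of B cells.

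The T cell genes of the rule are given first, as a description only. *Cd3d*, *Cd3g*, and *Cd3e*, which encode the signaling chains of the receptor, were at 771, 669, and 275 CPM in the CD8-negative T cells and had 0 UMIs in the NK and B cells, as the rules require. These genes lie together on chromosome 9 of GRCm38, *Cd3g* from 44969572 to 44980431 on the minus strand, *Cd3d* from 44981786 to 44987339 on the plus strand, and *Cd3e* from 44998740 to 45009627 on the minus strand. The rule did not use *Tcf7* and *Lef1*, 2 transcription factors of T cell development and of naive T cells. *Tcf7* was at 470 CPM (444 to 497) in the CD8-negative T cells, at 384 CPM in CD8 T cells, at 42.5 CPM in NK cells, and at 1.32 CPM in B cells. *Lef1* was at 494 CPM (467 to 522), against 435 CPM, 60.4 CPM, and 5.71 CPM in the same order. Both genes had a UMI in 266 of the 319 cells, and neither did in 14, of which 8 held a UMI of *S100a4*, a calcium-binding protein gene of activated T cells. *Cd4* (chromosome 6 from 124864692 to 124888221, minus strand, GRCm38) was at 136 CPM (122 to 151), at 3.94 CPM in CD8 T cells, and had 0 UMIs in NK and B cells.

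Genes of other blood cells that the rule did not use were at low levels. Of 8 such B cell markers, 6 had a UMI in the CD8-negative T cells with a summed level of 13.7 CPM, against 20334 CPM in B cells, the most abundant was *Cd74* at 5.49 CPM, and *Pax5* was at 0. Of 9 such NK cell markers, 6 had a UMI with a summed level of 41.9 CPM, against 22586 CPM in NK cells, led by *Klrd1* at 22.3 CPM, while *Klra8*, *Klra4*, and *Eomes* were at 0. All 7 neutrophil markers besides *S100a8* and *S100a9* had UMIs, with a summed level of 20.4 CPM led by *Retnlg* at 12.9 CPM, and this sum was 22.7 CPM in CD8 T cells, 92.8 CPM in NK cells, and 58.9 CPM in B cells. *S100a9*, which the rule limits, was at 69.8 CPM. Of 11 monocyte and macrophage markers, 8 had UMIs with a summed level of 147 CPM led by *Cst3* at 71.3 CPM, and *Csf1r*, *Fcgr1*, and *Adgre1* were at 0. Platelet and erythroid markers had 1 UMI each among 7 genes each. The part of free RNA in these low levels was not tested.

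**Figure D1:**
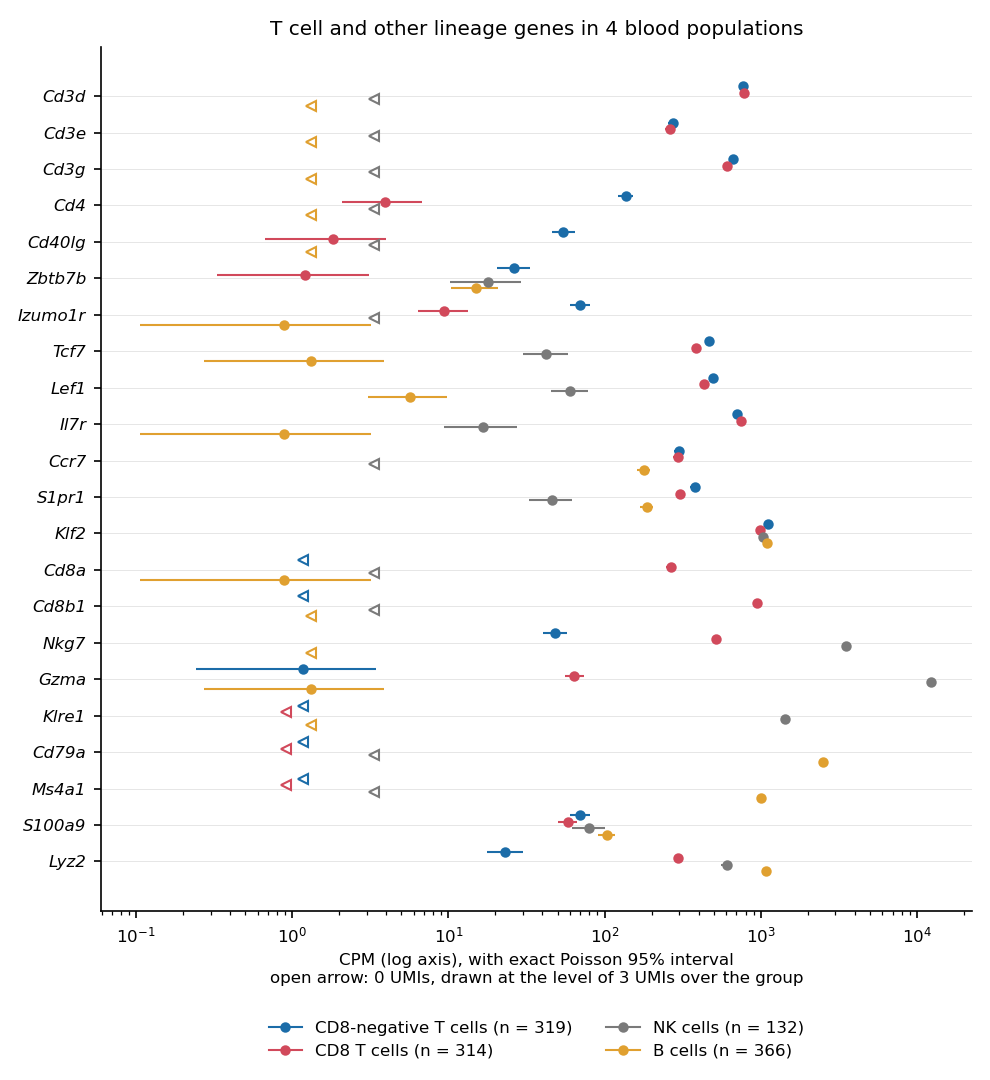
Levels in CPM (log axis) of T cell, NK cell, B cell, and myeloid genes in 4 blood populations of 1 library, with exact Poisson 95% intervals as bars and open arrows where a gene had 0 UMIs, drawn at the level of 3 UMIs over the group. *Tcf7*, *Lef1*, and *Il7r* are high in both T cell populations, while *Cd4* is at 136 CPM in the CD8-negative T cells and at 3.94 CPM in the CD8 T cells.

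Cells on either side of the thresholds were as follows. The 20 cells with 3 to 5 UMIs of the *Cd3* genes held *Cd4* at 167 CPM, *Tcf7* at 400 CPM, and *Lef1* at 567 CPM, and the 2 cells with exactly 3 held no UMI of any of the 3. The 6 cells left out with 2 *Cd3* UMIs held *Cd4* at 130 CPM, *Tcf7* at 456 CPM, and *Lef1* at 261 CPM. The 31 cells left out for 1 CD8 UMI (of *Cd8b1* in 30 of them and *Cd8a* in 1) held *Cd4* at 131 CPM, in 18 of the cells. That level was close to the 136 CPM of the cells kept. The 5 cells left out for 1 NK cell UMI held *Cd4* at 46.4 CPM, in 2 of them, and the 9 left out for 1 B cell UMI held it at 91.4 CPM, in 7. The 37 cells left out for 2 or more NK cell UMIs held *Cd4* at 11.7 CPM. The share of *S100a8* and *S100a9* did not exceed 0.305% in any cell kept, and the 3 cells of the library with at least 3 *Cd3* UMIs that were over the limit began at 5.05%, of which 1 was left out at this step.

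The 8 T cell markers measured besides the *Cd3* genes and the receptor constant regions summed to 1484 CPM in the CD8-negative T cells, 1210 CPM in CD8 T cells, 853 CPM in NK cells, and 305 CPM in B cells. *Lck*, the kinase that starts receptor signaling, was at 270 CPM, *Lat*, its adaptor, at 255 CPM, and *Cd28*, the costimulatory receptor, at 203 CPM. *Lck* was also present in NK cells (326 CPM), whereas *Cd5* and *Cd6*, surface regulators of receptor signaling, were at 99.5 and 62.7 CPM in the CD8-negative T cells and at 0 UMIs in NK cells. By UMIs, which are tags of transcript ends and are not divided by gene length, the leading genes outside those with *Rpl*, *Rps*, or mitochondrial names were *Gm42418* (89089 CPM), *Malat1* (19967 CPM), *Tpt1* (14829 CPM), and *Tmsb4x* (11538 CPM), followed by *Eef1a1*, *Fau*, which encodes a ribosomal protein as part of a fusion, *Tmsb10*, *Actb*, *AY036118*, and *Gnb2l1*. *Gm42418* and *AY036118*, which overlap ribosomal RNA sequence, together took 9.39% of the UMIs of the CD8-negative T cells and 9.16% of those of CD8 T cells.

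The genes of naive and recirculating T cells differed in how many cells they were found in. *Klf2*, which keeps T cells circulating, was at 1114 CPM with a UMI in 312 cells. *Il7r*, the survival receptor for interleukin 7, was at 709 CPM in 281 cells, and *S1pr1*, the receptor for exit from lymphoid organs, was at 378 CPM in 280 cells. Each of these 3 genes had a UMI in at least 280 of the 319 cells. *Ccr7*, the chemokine receptor for entry into lymph nodes, was at 298 CPM (277 to 320) in 246 cells. *Igfbp4* (428 CPM, 201 cells) and *Dapl1* (233 CPM, 132 cells), transcripts of naive T cells, were found in fewer cells, and *Ccr9*, a homing receptor gene, in 10.

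*Cd4* itself was sampled thinly. Of the 319 cells, 120 had no *Cd4* UMI, 106 had 1, 59 had 2, 18 had 3, 12 had 4, 3 had 5, and 1 had 7. The share with a UMI was therefore 62.4% (56.8% to 67.7%), and the share was 2.23% of CD8 T cells, 0% of 132 NK cells, and 0% of 366 B cells. With each cell thinned to 1000 UMIs, which left out 1 CD8-negative T cell and 3 B cells, the share was 12.6% (9.14% to 16.7%) in the CD8-negative T cells and 0.637% in CD8 T cells. At this depth a cell without a *Cd4* UMI cannot be called a cell without *Cd4* RNA.

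The cells with and without a *Cd4* UMI were alike in most genes. The 199 cells with one had a median of 8070 UMIs, and the 120 without had 7625. Of 4231 genes compared, 0.804% were at least 2-fold higher in the cells with *Cd4* and 0.331% at least 2-fold lower. Other genes of the CD4 lineage were on both sides. *Cd40lg*, the ligand by which helper cells activate B cells, was at 57.7 CPM with and 48.6 CPM without *Cd4* (log2 ratio 0.25, -0.28 to 0.80), and *Izumo1r*, folate receptor 4, was at 72.3 and 65.1 CPM (0.15, -0.31 to 0.63). None of 13 naive genes compared was past 2-fold, with *Tcf7* at 479 and 454 CPM and *Lef1* at 491 and 499 CPM. Of 4 cytotoxic genes compared, 3 were more than 2-fold lower in the cells with *Cd4*. *Ccl5*, a chemokine of effector cells, was at 51.0 CPM with and 396 CPM without *Cd4* (-2.96, -3.32 to -2.61), but its 359 UMIs in the latter came from 11 cells. *Nkg7*, a protein of cytotoxic granules, was at 30.4 and 80.6 CPM, and *Klrd1*, the CD94 receptor chain, at 14.0 and 37.5 CPM. In the other direction, *S100a6* was at 180 and 82.8 CPM, and the monocyte chemokine receptor gene *Ccr2* was at 34.6 and 15.5 CPM. *Klrd1* reached the count minimum only with the UMIs of the cells without *Cd4*, and *Ccr2* only with those of the cells with it. The directions of both genes are therefore descriptions only. The cell cycle genes *Top2a* and *Stmn1* were also at least 2-fold higher with *Cd4*, and the cycling cell described later was among the cells with *Cd4*.

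**Figure D2:**
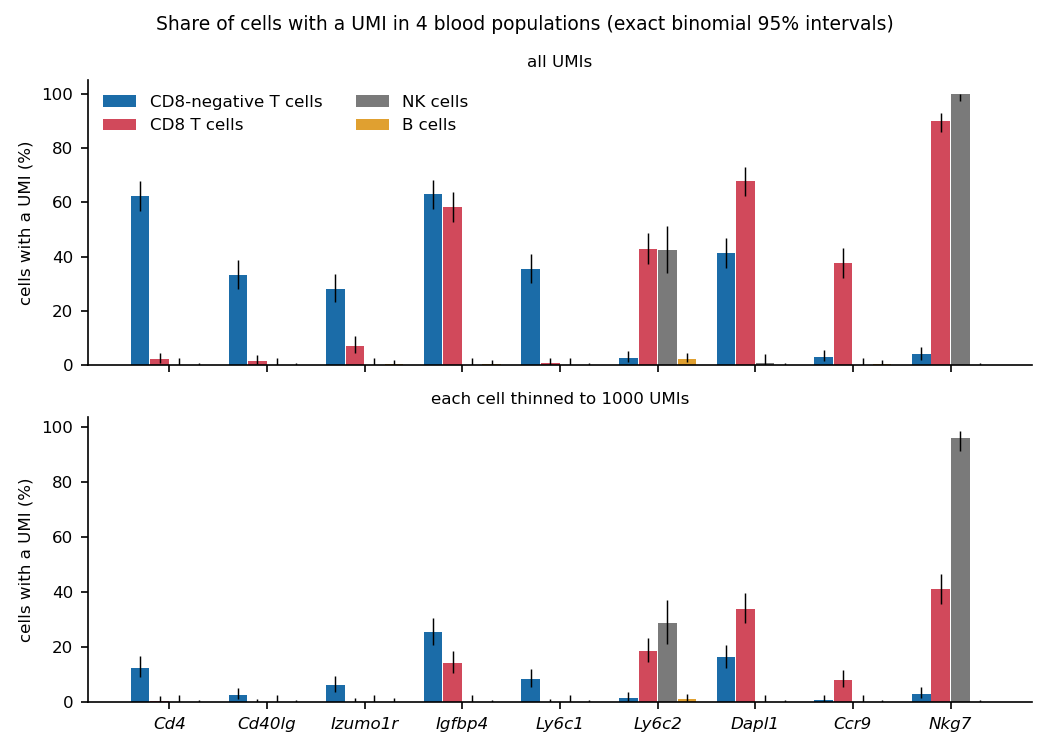
Share of cells with at least 1 UMI of a gene (bars, with exact binomial 95% intervals) in 4 blood populations, for all UMIs (top) and after thinning each cell to 1000 UMIs (bottom). *Cd4*, *Cd40lg*, *Izumo1r*, and *Ly6c1* are found mainly in CD8-negative T cells and *Ly6c2* and *Nkg7* in CD8 T cells and NK cells, and every share above 0 is smaller after thinning.

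CD8 T cells were the nearest population, and most genes had like levels in both. Of 6606 genes with at least 50 UMIs over both populations, 100 (1.51%) were at least 2-fold higher in the CD8-negative T cells, 137 (2.07%) were at least 2-fold lower, and the median log2 ratio was 0.04. The populations were split by their *Cd8a* and *Cd8b1* UMIs, and all ratios to CD8 T cells are descriptions of that split. Among 6 genes of the CD4 lineage compared, 5 were at least 2-fold higher and 0 lower, with a median log2 ratio of 3.67. *Cd4*, *Cd40lg*, *Zbtb7b*, and *Izumo1r* had fewer than 50 UMIs in CD8 T cells. They reached the minimum only through the CD8-negative T cells, which largely set their direction. *Cd4* had a log2 ratio of 5.11 (4.32 to 6.04), which was 3.46 (3.00 to 3.94) when the 31 cells with 1 CD8 UMI were added to the CD8 T cells and 8.74 (6.26 to 14.05) when 4 CD8 UMIs were required, where 1 *Cd4* UMI was left in CD8 T cells. *Cd40lg* was at 54.5 CPM against 1.82 CPM (4.91, 3.75 to 6.38), and its ratio was 3.59 and 6.42 under these limits. *Zbtb7b*, which encodes the factor ThPOK that commits thymocytes to the CD4 lineage, was at 26.3 CPM against 1.21 CPM (4.44, 3.02 to 6.36), with 3 of the 4 UMIs in CD8 T cells lost when cells with the highest doublet scores were removed (6.42, 3.90 to 11.75) and 10 UMIs there when the 31 cells were added (3.22, 2.25 to 4.34), but NK and B cells also held it, at 17.9 and 14.9 CPM. *Izumo1r* was at 69.8 CPM against 9.38 CPM (2.89), and *Gata3*, a factor of T cell and helper cell development, was at 44.3 CPM against 20.9 CPM (1.08). The sixth gene, *Tox*, was at 51.7 and 38.4 CPM (0.43).

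A high ratio that depended on the limit for CD8 T cells was that of *Ly6c1*, a gene for a small lipid-anchored surface protein. It was at 93.3 CPM (81.8 to 106) in the CD8-negative T cells, from 238 UMIs in 113 cells, and at 1.21 CPM in CD8 T cells, from 4 UMIs in 3 cells (log2 ratio 6.27, 4.89 to 8.15). With the 31 cells of 1 CD8 UMI added, the CD8 T cells held 41 *Ly6c1* UMIs and the ratio was 3.01 (2.53 to 3.52), below those of *St8sia6*, *Cd40lg*, *Cd4*, *Maf*, and *Zbtb7b*, and with at least 4 CD8 UMIs it was 8.20 (5.70 to 13.51), from 1 UMI in CD8 T cells. Its neighbor *Ly6c2* had the opposite distribution, with 34.5 CPM from 88 UMIs in 9 CD8-negative T cells, 77 of them in 4 cells, and 334 CPM from 1105 UMIs in 135 CD8 T cells (-3.28, -3.61 to -2.96). Both genes were found in only 3 CD8-negative T cells and 1 CD8 T cell. After thinning, 8.49% of CD8-negative T cells and 0% of CD8 T cells held *Ly6c1*, against 1.57% and 18.8% for *Ly6c2*, and in B cells these shares were 0% and 1.38%. *Ly6c1* lies on chromosome 15 of GRCm38 from 75044018 to 75048830 and *Ly6c2* from 75108158 to 75111970, both on the minus strand. Their best-matching GENCODE M21 transcripts were 97.6% identical over 822 aligned bases, so that reads of either gene could be counted for the other, which was not tested.

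The sequences before the starts of *Ly6c1* and *Ly6c2* are shown because these near-identical genes had opposite levels in the T cell populations. Of the 250 bases before each RefSeq start (GRCm38.p6), the best local alignment paired 204, of which 84.3% were identical. The stretch of *Ly6c1*, chr15:75048839-75049056 on the minus strand, ends 1 base before the start, and that of *Ly6c2*, chr15:75111998-75112221 on the minus strand, ends 26 bases before it. Both are written 5′ to 3′, with capitals for the bases that differ from the other gene or are missing in it, 46 in *Ly6c1* and 52 in *Ly6c2*. The alignment is a description of the sequence only, and no binding or accessibility was measured.
Ly6c1: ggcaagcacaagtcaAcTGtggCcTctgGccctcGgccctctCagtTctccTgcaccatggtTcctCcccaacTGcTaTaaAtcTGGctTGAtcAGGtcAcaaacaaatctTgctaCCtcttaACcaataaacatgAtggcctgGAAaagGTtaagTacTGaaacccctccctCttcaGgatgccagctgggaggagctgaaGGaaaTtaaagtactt
Ly6c2: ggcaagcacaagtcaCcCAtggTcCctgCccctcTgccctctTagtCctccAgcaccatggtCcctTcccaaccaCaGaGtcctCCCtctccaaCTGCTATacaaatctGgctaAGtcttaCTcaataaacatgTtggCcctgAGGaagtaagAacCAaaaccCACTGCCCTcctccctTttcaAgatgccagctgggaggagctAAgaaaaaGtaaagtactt

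The other leading genes were of several kinds. *St8sia6*, a sialyltransferase gene, had 98 UMIs in 67 CD8-negative T cells and 0 in CD8 T cells (38.4 CPM, a log2 ratio of at least 5.4 with a floor of 3 UMIs over the group), while CD8 T cells with the 31 cells added held 11 UMIs (3.63). It was not limited to T cells, with 17.6 CPM in B cells. *Maf*, a transcription factor of differentiated helper cells, was at 35.7 CPM against 1.21 CPM (4.88, or 3.28 with the 31 cells added), and *Pdlim4*, a cytoskeletal adaptor gene, at 55.6 CPM against 3.33 CPM (4.06, or 2.98 with the 31 cells added and 7.45 with at least 4 CD8 UMIs). *Cd200*, the ligand of an inhibitory receptor, was at 18.0 CPM against 1.51 CPM (3.57, or 2.41 and 5.82 under the same limits), *Itgb3*, the integrin β3 gene, at 18.4 CPM against 2.12 CPM (3.12), and *Ikzf2*, which encodes the regulatory T cell factor Helios, at 103 CPM against 13.0 CPM (2.99). Genes lower in the CD8-negative T cells included *Bend4*, with 1 UMI against 86 (-6.05, -11.37 to -3.54), the predicted genes *Gm43698* and *Gm44175*, with 0 UMIs against 181 and 61, and *Adgrg5*, an adhesion receptor gene, with 2 UMIs against 71. *Gm44175* lies between *Cd8b1* and *Cd8a* on chromosome 6, the genes whose UMIs split the populations, so its ratio cannot be told apart from that split. *Gm43698* lies near *Bend4* on chromosome 5. *Lcn4*, a lipocalin gene, was at 2.74 CPM against 69.3 CPM (-4.66), *Racgap1*, a regulator of cell division, at 4.31 CPM against 57.2 CPM (-3.73), *Ncf1*, a subunit of the phagocyte oxidase, at 1.18 CPM against 15.1 CPM (-3.69), and *Plac8* at 16.1 CPM against 192 CPM (-3.58). *Ccr9*, the receptor for homing to the small intestine, was at 5.49 CPM against 66.3 CPM (-3.60, -4.49 to -2.82). *Lyz2*, a lysozyme gene of myeloid cells, was at 23.1 CPM against 296 CPM (-3.68), but 917 of the 977 UMIs in CD8 T cells came from 2 cells, and without the 4 CD8 T cells with 5 or more *Lyz2* UMIs its log2 ratio was 0.58.

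**Figure D3:**
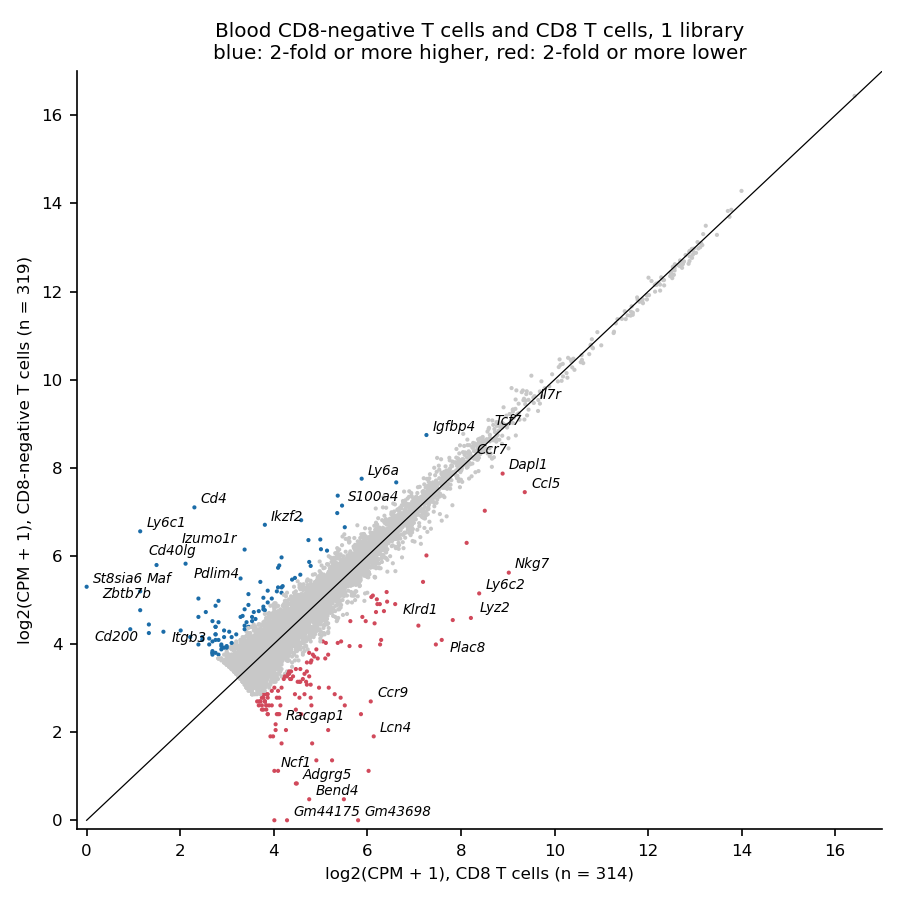
Levels of 6606 genes in 319 CD8-negative T cells (y axis) and 314 CD8 T cells (x axis) of the blood library, both as log2 of CPM plus 1. Genes at least 2-fold higher in CD8-negative T cells (100) are blue and those at least 2-fold lower (137) are red, and most genes, *Il7r* and *Ccr7* among them, lie near the diagonal.

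Gene lists were compared between the T cell populations in the same way. The cytotoxic list had 14 genes, of which 9 were compared, and all 9 were at least 2-fold lower, with a median log2 ratio of -3.34. *Gzma*, *Gzmb*, *Gzmm*, *Prf1*, and *Klrk1* reached the count minimum only through CD8 T cells, which largely set their direction. *Nkg7* was at 48.2 CPM against 519 CPM (-3.43, -3.71 to -3.16), *Klrd1* at 22.3 CPM against 226 CPM (-3.34), and *Ctsw*, a protease gene of cytotoxic cells, at 20.4 CPM against 135 CPM (-2.73). The granzyme genes were almost absent, with 3 UMIs of *Gzma* against 212, 1 of *Gzmb* against 146, and 0 of *Gzmm* against 50. *Prf1*, the perforin gene, was at 9.4 CPM against 19.7 CPM (-1.07), and *Klrk1*, the NKG2D receptor gene, at 7.84 CPM against 22.7 CPM (-1.53). *Ccl5* was the most abundant gene of the list at 174 CPM, from 27 of the 319 cells, with 658 CPM in CD8 T cells (-1.92). *Runx3*, the factor of the CD8 lineage, was at 41.5 CPM against 145 CPM (-1.80).

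The naive genes had a median log2 ratio of 0.07, close to that of all genes, with 1 of 14 at least 2-fold higher and 2 lower. *Igfbp4* was the higher one, at 428 CPM against 153 CPM (1.49, 1.33 to 1.64), although its share of cells was 63.0% against 58.3% before thinning and 25.5% against 14.3% after it. *Dapl1* was lower, at 233 CPM against 474 CPM (-1.03, -1.16 to -0.89), along with *Ccr9*, which reached the count minimum only through CD8 T cells. *Ccr7* was at 298 and 294 CPM and *Il7r* at 709 and 752 CPM. Thus *Igfbp4* and *Dapl1*, both transcripts of naive cells, had opposite ratios.

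Among 13 costimulatory and inhibitory receptor genes compared, 5 were at least 2-fold higher and 1 lower, with a median log2 ratio of 0.84. *Cd28* was at 203 CPM against 97.2 CPM (1.06, 0.86 to 1.27), and *Icos*, its inducible relative, at 61.5 CPM against 17 CPM (1.86). *Cd5* was at 99.5 CPM against 44.8 CPM (1.15), and *Btla*, an inhibitory receptor gene, at 38.0 CPM against 16 CPM (1.24). The fifth was *Cd200*, which reached the count minimum only with the UMIs of the CD8-negative T cells, and the lower gene was *Cd226*, an activating receptor gene, at 31.3 CPM against 72.7 CPM (-1.21). *Slamf6* and *Cd27* were at 215 and 160 CPM and differed by less than 2-fold. Of the inhibitory receptor genes of this list, *Pdcd1* and *Tigit* had 2 UMIs each and *Lag3* and *Havcr2* 1 each in all 319 cells, while *Ctla4* had 44 UMIs against 3.

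For T cell receptor signaling, none of 24 genes compared was past 2-fold, and the median log2 ratio was 0.16. *Ptprc*, the CD45 phosphatase gene, was at 789 and 849 CPM, and *Lat* was at 255 and 171 CPM (0.57). Cytokine receptor genes were likewise within 2-fold in all 18 compared, with *Il2rg* at 183 and 217 CPM, *Ifngr1* at 123 and 187 CPM, and *Il6ra* at 115 and 74.2 CPM. Of 20 immediate early and stress genes, 1 was past 2-fold, *Rgs1*, a regulator of chemokine receptor signaling, at 21.6 CPM against 6.05 CPM (1.83), and *Hspa8*, *Jund*, *Dnaja1*, and *Junb* led this list at 996, 479, 336, and 299 CPM. *Rgs1* reached the count minimum only with the UMIs of the CD8-negative T cells. None of 19 quiescence genes was past 2-fold (*Btg1* 1292 and 1117 CPM, *Slfn2* 543 and 384 CPM, *Pdcd4* 507 and 514 CPM). The same held for 13 glycolysis genes (*Gapdh* 375 and 314 CPM, *Ldha* 230 and 161 CPM, *Eno1* 162 and 122 CPM, *Pkm* 157 and 115 CPM), 17 apoptosis and survival genes (*Gimap3* 383 and 333 CPM, *Gimap4* 364 and 290.3 CPM, *Bcl2* 319 and 397 CPM, *Mcl1* 296 and 244 CPM), and 11 MHC class I genes (*B2m* 1698 and 1794 CPM, *H2-K1* 1424 and 1355 CPM, *H2-D1* 1312 and 1156 CPM).

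Interferon response genes had a median log2 ratio of 0.23, with 2 of 25 at least 2-fold higher and 0 lower. *Ly6a*, which encodes Sca-1, was at 215 CPM against 57.8 CPM (1.89, 1.65 to 2.14), and *Iigp1*, an immunity-related GTPase gene, at 32.1 CPM against 12.7 CPM (1.34). *Iigp1* reached the count minimum only with the UMIs of the CD8-negative T cells. *Ifi27l2a* led the list at 897 CPM against 541 CPM (0.73), followed by *Ly6e* at 662 CPM against 480 CPM (0.46) and *Psmb8* at 428 CPM against 440 CPM. *Isg15* was at 61.9 CPM, from 47 cells, and its share after thinning was 4.72%, against 2.55% in CD8 T cells and 1.93% in B cells.

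Homing genes with high levels were *Klf2*, *S1pr1*, and *Ccr7*, and 1 of 21 compared was at least 2-fold higher, *Ly6c1*, and 4 were lower. These 4 were *Ly6c2*, *Ccr9*, *Itgae*, the integrin of cells in epithelia (7.05 CPM against 30.3 CPM), and *Cxcr3*, a receptor for inflammatory chemokines (7.05 CPM against 17 CPM). *Ly6c1* reached the count minimum only through the CD8-negative T cells, and *Ccr9*, *Itgae*, and *Cxcr3* only through CD8 T cells, which largely set their direction. Effector and memory genes had a median log2 ratio of 0.00 over 18 genes, with *S100a4*, *Maf*, and *Icos* at least 2-fold higher and *Ccl5*, *Cxcr3*, and *Ly6c2* at least 2-fold lower. Of these, *Maf* reached the count minimum only through the CD8-negative T cells and *Cxcr3* only through CD8 T cells. *Crip1*, *S100a10*, *Vim*, and *Lgals1* led this list at 758, 429, 246, and 239 CPM and were within 2-fold.

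**Figure D4:**
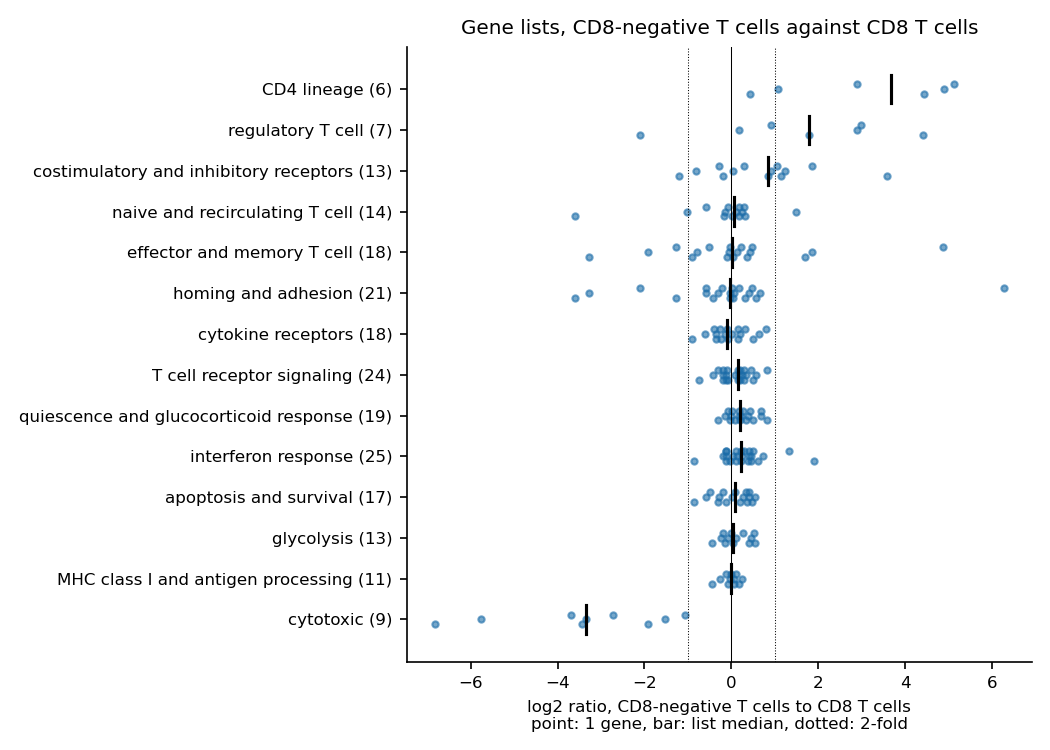
Log2 ratios of CPM between CD8-negative T cells and CD8 T cells for the genes of 14 lists, with 1 point per gene, a bar at the list median, and dotted lines at 2-fold. The number of genes compared stands beside each name, and the CD4 lineage list (median 3.67) and the cytotoxic list (median -3.34) lie at the ends, while most other lists center near 0.

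Helper cell subsets were read from their defining genes. Cytokines of activated helper cells were rare. *Il5*, *Il13*, *Il10*, *Il17a*, *Il17f*, and *Il22* had 0 UMIs in the 319 cells, which allows up to 1.18 CPM for each. *Ifng* had 1 UMI, *Il21* 1, *Il2* 8 in 6 cells, and *Il4* 8 in 5 cells. Instead, the cytokine genes with the most UMIs were *Ltb* (602 CPM), which encodes lymphotoxin β, *Mif* (204 CPM), *Ccl5* (174 CPM), and *Il16* (87.4 CPM), and of 7 compared with CD8 T cells *Cd40lg* was at least 2-fold higher and *Ccl5* lower. Of the subset factors, *Tbx21* (Th1) had 8 UMIs in 4 cells and *Bcl6* (follicular helper) 11 UMIs in 10 cells, while *Gata3* (Th2) had 113 UMIs in 74 cells. *Rora*, which acts in Th17 cells but is also found in other effector cells, was at 26.6 CPM against 9.38 CPM in CD8 T cells (1.51, 0.87 to 2.17). *Stat4* and *Il18r1* led the Th1 list at 71.3 and 49.0 CPM, and 1 of 4 Th1 genes compared, *Cxcr3*, was at least 2-fold lower than in CD8 T cells. *Cxcr3* reached the count minimum only through CD8 T cells. For follicular helper cells, *Icos* and *Sh2d1a* were at 61.5 and 102 CPM, but *Cxcr5* and *Pdcd1* had 2 UMIs each.

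Unconventional T cells could be judged only in part, because the receptor constant region genes are not analysed here. The rule also left out T cells with a UMI of *Klre1*, *Klrb1c*, or *Ncr1*. Of the other γδ T cell genes, *Cd163l1* had 5 UMIs in 3 cells, *Sox13* 2 UMIs in 1 cell, *Blk* 2 UMIs in 2 cells, and *5830411N06Rik* 2 UMIs in 1 cell. *Zbtb16*, which encodes the factor PLZF of NKT cells, had 8 UMIs in 3 cells. Of 4 innate-like genes compared with CD8 T cells, *Klrk1* and *Ly6c2* were at least 2-fold lower and 0 were higher, with *Klrk1* reaching the count minimum only through CD8 T cells. All UMIs of *Il4*, *Tbx21*, *Zbtb16*, and *Cd163l1* lay in cells that also held *S100a4*.

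The cells were divided further by *Ccr7* and *S100a4*, as markers of recirculating and of activated T cells. With *Ccr7* and without *S100a4* were 237 of 319 cells (74.3%, 69.1% to 79.0%, but 54.5% when 2 UMIs were required and 25.2% in thinned cells), with *S100a4* and without *Ccr7* were 21 (6.58%, 4.12% to 9.89%), with both were 9 (2.82%), and with neither were 52 (16.3%, 12.4% to 20.8%). The 52 cells with neither had *Lef1* at 507 CPM and *Tcf7* at 473 CPM, like the 237 cells with *Ccr7* alone (534 and 491 CPM). *S100a4* was found in 9.40% of CD8-negative T cells, 6.37% of CD8 T cells, 23.5% of NK cells, and 6.28% of B cells, and after thinning in 5.66%, 0.955%, 6.06%, and 4.13%.

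The 30 cells with an *S100a4* UMI held the other genes of activated T cells at higher levels. Their median depth was 6736 UMIs, against 8037 for the other 289 cells, and 12.2% of 4231 genes were at least 2-fold higher in them and 4.37% at least 2-fold lower, with a median log2 ratio over all genes of 0.32. Of the effector and memory list without *S100a4*, 15 of 15 genes compared were at least 2-fold higher, with a median log2 ratio of 3.07. Some of these genes, *Il2rb* and *Maf* among them, reached the count minimum only with the UMIs of the cells with *S100a4*. Those UMIs largely set their direction, so the count of 15 of 15 is a description only. *S100a6* was at 1314 CPM against 24.2 CPM (log2 ratio 5.76). *Lgals1*, which encodes galectin 1, was at 1293 CPM against 130 CPM (3.31), *Id2*, a factor of effector cells, at 684 CPM against 61.4 CPM (3.48), and *Itgb1*, the integrin β1 gene, at 342 CPM against 51.9 CPM (2.72). *Il2rb*, the receptor chain for interleukins 2 and 15, was at 167 CPM against 9.95 CPM (4.07). Of the 371 *S100a6* UMIs of the whole population, 315 lay in these 30 cells.

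Of 18 homing genes compared, 5 were at least 2-fold higher in these cells and 2 lower, *Ccr7* among them. *Ccr2*, which is also a monocyte marker, was at 284 CPM from 17 of the 30 cells, against 3 UMIs in the 289 others (7.77, 6.16 to 10.09), and *Cxcr6*, a receptor of tissue-homing T cells chosen after its values were seen, was at 213 CPM from 11 cells, against 3 UMIs in 1 cell (7.36, 5.73 to 9.68). Both genes reached the count minimum through the cells with *S100a4*. *Rora* was at 204 CPM against 8.22 CPM (4.64) and *Maf* at 254 CPM against 13.0 CPM (4.29), and both also reached that minimum only through these cells. The monocyte and macrophage markers summed to 455 CPM in the 30 cells and 115 CPM in the others, but no other gene of that list compared was past 2-fold, with *Lyz2* at 37.5 and 21.6 CPM and never above 3 UMIs in a cell. In the naive list, 8 of 13 genes compared were at least 2-fold lower and 0 higher. Some of the lower genes, *Igfbp4*, *Dapl1*, and *Lef1* among them, reached the count minimum only with the UMIs of the 289 other cells. The count of 8 of 13 is therefore a description only. *Igfbp4* was at 20.9 CPM against 470 CPM (-4.49, -6.12 to -3.27), *Dapl1* at 16.7 CPM against 255 CPM (-3.93), and *Lef1* at 150 CPM against 530 CPM (-1.82). *Tcf7* (296 and 488 CPM), *Klf2* (868 and 1140 CPM), and *Il7r* (947 and 685 CPM) stayed within 2-fold, and *Cd4* was at 142 and 136 CPM (0.06, -0.49 to 0.58), with a UMI in 21 of the 30 cells. Among the cytotoxic genes, 4 of 4 compared were higher, with *Ccl5* at 859 CPM from 11 cells against 103 CPM and *Nkg7* at 325 CPM from 7 cells against 19.5 CPM. *Nkg7*, *Klrd1*, and *Ctsw* reached the count minimum only with the UMIs of the cells with *S100a4*. Those UMIs largely set their direction, so the count of 4 of 4 is a description only.

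A single cycling cell stood apart. It had the most UMIs of all 319 cells (30471) and held 190 UMIs of *Hist1h2ap*, a histone gene of the S phase, where no other cell held more than 2, together with 32 of *Top2a*, 10 of *Mki67*, 8 of *S100a4*, and 1 of *Cd4*. With it, 8 of 8 cell cycle genes compared were at least 2-fold higher in the cells with *S100a4*, and without it 3 of 7 were, namely *Mcm6*, *Hmgb2*, and *H2afz*. Without it, the effector and memory genes remained at 15 of 15 and the naive genes at 8 of 13, with 11.3% of 4176 genes higher and 4.48% lower. The cytotoxic genes compared were then 3, without *Ctsw*. In the comparison of all CD8-negative T cells with CD8 T cells, 1 of 12 cell cycle genes was at least 2-fold higher, *Stmn1*, and 102 of its 209 UMIs came from this cell. *H2afz*, *Tubb5*, *Hmgb2*, and *Tuba1b* led this list at 317, 301, 291, and 140 CPM.

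Regulatory T cells were sought by *Foxp3*, the gene of their defining factor (chromosome X from 7573644 to 7595245, plus strand, GRCm38). It had 36 UMIs in 17 CD8-negative T cells (5.33%, 3.13% to 8.40%) and 0 UMIs in CD8 T cells, NK cells, and B cells. After thinning the share was 0.943%, at which depth most of these cells would not be found. The 17 cells had a median of 5750 UMIs, against 8027 for the 302 others, 11 of them held *Cd4*, and 6 held *S100a4*. With 106714 UMIs in all, counting error in the 17 cells is wide, and 13.1% of 4232 genes were at least 2-fold higher in them and 8.91% at least 2-fold lower, with a median log2 ratio of 0.24.

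The other regulatory T cell genes were enriched in these 17 cells, 4 of 4 compared being at least 2-fold higher. *Ikzf2* was at 1115 CPM from 16 of the 17 cells, against 59.3 CPM in the others (log2 ratio 4.23, 3.87 to 4.59). *Izumo1r* was at 375 CPM against 56.4 CPM (2.73, 2.19 to 3.25), *Tnfrsf18*, the GITR gene, at 300 CPM against 47.0 CPM (2.67), and *Capg*, an actin-capping protein gene, at 244 CPM against 32.7 CPM (2.90). Of the 13 other regulatory genes, which were below the count minimum, 11 had a higher CPM in the cells with *Foxp3*, 1 a lower one, and 1 had no UMI. The share of all genes below the minimum that were higher is not given here, so this count is only a description. Of the 13 genes, those with the most UMIs were the interleukin 2 receptor gene *Il2ra* at 187 CPM against 9.41 CPM (4.32, 3.38 to 5.25), *Ctla4*, an inhibitory receptor gene, at 178 CPM against 10.2 CPM (4.12), and *Nrp1* at 216 CPM against 10.6 CPM (4.34). For *Ikzf2*, 119 of the 264 UMIs of the whole population lay in the 17 cells. *Cd4* was at 141 CPM against 136 CPM (0.05, -0.81 to 0.79).

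The cells with *Foxp3* also held activation genes at higher levels and some naive genes at lower levels. Of 16 effector and memory genes, 13 were at least 2-fold higher and 2 lower, with *S100a4* at 1499 CPM against 81.0 CPM, although it came from 6 cells, and *Icos* at 244 CPM against 53.6 CPM (2.19). The lower genes were *Ccl5*, with 1 UMI, and *Id2*. Of 13 naive genes, 6 were lower and 0 higher, among them *Lef1* at 112 CPM against 511 CPM (-2.18), *Tcf7* at 150 CPM against 484 CPM (-1.69), and *Ccr7* at 84.3 CPM against 308 CPM (-1.87). *Lef1*, *Tcf7*, and *Ccr7* reached the count minimum only with the UMIs of the cells without *Foxp3*, so this count is a description only. *Dapl1* had 0 UMIs in the 17 cells, which allows 28.1 CPM, against 243 CPM in the others. *Klf2* (1256 and 1108 CPM) was within 2-fold, unlike *Ccr7*. Markers of other cells differed as well. Monocyte and macrophage markers summed to 356 CPM with *Foxp3* and 138 CPM without. Of those compared, *Ccr2* and *Cst3* were at least 2-fold higher and *Lyz2* at least 2-fold lower. B cell markers summed to 65.6 and 11.5 CPM, and none of them reached the count minimum.

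**Figure D5:**
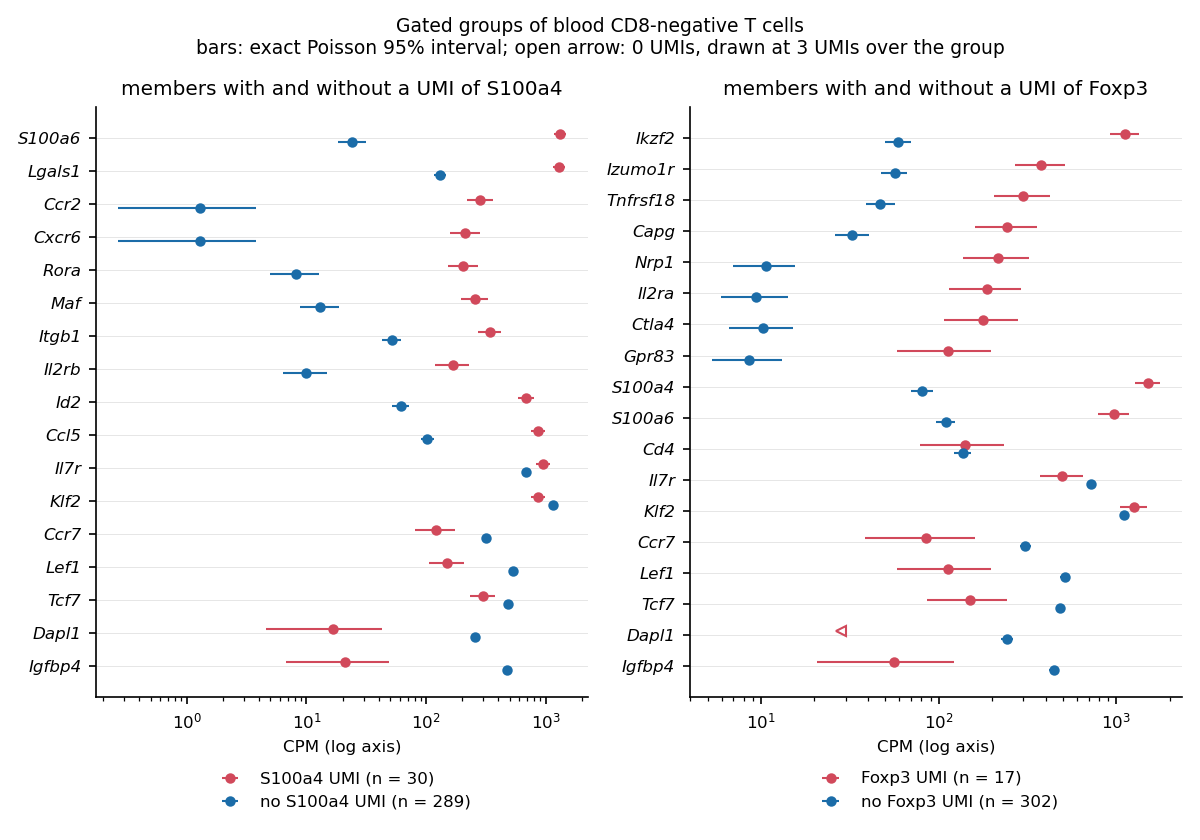
Levels in CPM (log axis) in CD8-negative T cells with and without an *S100a4* UMI (left, 30 and 289 cells) and with and without a *Foxp3* UMI (right, 17 and 302 cells), with exact Poisson 95% intervals as bars and an open arrow where a gene had 0 UMIs. In both panels the activation or regulatory T cell genes at the top lie higher in the smaller group and the naive genes *Lef1*, *Tcf7*, *Dapl1*, and *Igfbp4* at the bottom lie lower.

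Against CD8 T cells, 4 of 7 regulatory genes compared were at least 2-fold higher and 1 lower, with a median log2 ratio of 1.78, which was 2.79 with a minimum of 20 UMIs and 2.89 with 200. The higher genes were *Ikzf2*, *Izumo1r*, *Nrp1* (19.2 CPM against 3 UMIs, 4.40, 2.77 to 6.73), and *Capg* (41.5 CPM against 12.1 CPM, 1.78), and the lower gene was *Itgae*. The 4 higher genes had fewer than 50 UMIs in CD8 T cells, and *Itgae* had fewer than 50 in the CD8-negative T cells. Each thus reached the count minimum only with the UMIs of the population where it was higher. *Foxp3* and *Il2ra*, with 36 and 43 UMIs against 0, did not reach the minimum of 50 UMIs.

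NK cells and B cells differed from the CD8-negative T cells in many more genes than CD8 T cells did. Against NK cells, 331 of 5531 genes (5.98%) were at least 2-fold higher in the CD8-negative T cells, 1019 (18.4%) were at least 2-fold lower, and the median log2 ratio was -0.43. Ribosomal protein genes took 40.9% of UMIs in the CD8-negative T cells and 21.4% in NK cells, and without these and mitochondrial genes the counts were 532 higher and 483 lower, while ratios centered on their median gave 592 and 500. *Dapl1*, *Igfbp4*, *Trib2*, *Klk8*, and *Tesc* had the largest ratios (*Trib2*, a pseudokinase gene, at 125 CPM against 1 UMI), and *Gzma*, *Gzmb*, *Fcer1g*, *Zeb2*, and *Klra4* the lowest (*Gzma* 1.18 CPM against 12361 CPM). Against B cells, 400 of 6561 genes (6.1%) were higher and 898 (13.7%) lower, with a median of -0.21. *Il7r*, *Igfbp4*, *Tcf7*, *Bcl11b*, a factor of T cell commitment, and *Cd247* had the largest ratios (*Bcl11b* 292 CPM against 0 UMIs, at least 7.79), and *H2-Eb1*, *Ebf1*, *H2-Ab1*, *H2-Aa*, and *Cd74* the lowest (*Cd74* 5.49 CPM against 10606 CPM). Among naive genes, 10 of 13 were at least 2-fold higher than in NK cells with 0 lower, and 8 of 13 than in B cells, with *Foxp1* lower, and *Klf2*, at 1114, 1035, and 1093 CPM, was within 2-fold in both. Interferon response genes were at least 2-fold higher in 12 of 22 against NK cells with 0 lower, and in 11 of 26 against B cells, with *Ly6e* lower and a summed level over the list of 3614 CPM against 3903 CPM, and *Iigp1* was at 0 UMIs in both.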

How the data were processed

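The deposited values were raw UMI counts, which the file headers credit to Cell Ranger 5.0.1, and the submitters' processing notes name mm10 as the build. Ensembl identifiers gave gene positions in GENCODE M21 (GRCm38). From the counts, summed UMIs per group were scaled to 1000000 UMIs (CPM). Genes with at least 50 UMIs over both groups were compared, the 12 genes of the rule were left out of the counts, and at least 2-fold was counted. Cells were not used as replicates. Doublets were not removed, and Scrublet in scanpy 1.11.5 was an alternative. Cells were thinned to 1000 UMIs before shares were compared. Of 31 gene lists, 13 members, all receptor or immunoglobulin genes, were not analysed here, and some results are not reported here. The members and lists were chosen with earlier results of these data known. By the rule for naming, genes were drawn from the genes of the rule, the markers, the genes that divide the cells, the 4 most abundant members of each list, members past 2-fold or near 0, the 10 genes with the largest ratio in each direction to CD8 T cells (a UMI in at least 10% of the higher cells), and the 10 genes with the highest CPM, and not all of these are named. The 5 genes in each direction to tendon cells were not given, and 5 each to NK and B cells, *Isg15*, *Cxcr6*, and genes within 2-fold named as contrasts were chosen after their values were seen. The 20 alternatives (17 planned and 3 added after the data had been seen) changed the filters, thresholds, weighting, scaling, and thinning. The software was matplotlib 3.10.9, pandas 2.3.3, scipy 1.17.1, and numpy 2.4.6 under Python 3.11.15.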

Additional observations from a re-analysis of the deposited data

How the results depend on the processing

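Over 20 alternatives, 205 of 242 values of 20 summary results stayed within the counting interval of the value above, within 0.1 for a median, or within 1.5 times for a count, and 37 moved, while for 63 single-gene results 667 of 726 values stayed, 58 moved, and 1 changed direction. The minimum of 50 UMIs set the counts of genes past 2-fold. With 20 UMIs they were 269 higher and 309 lower against CD8 T cells, 613 and 1661 against NK cells, and 643 and 1449 against B cells, and with 200 UMIs 19 and 34, 121 and 254, and 128 and 324, since fewer genes were compared. Against NK cells, centering gave 592 and 500, and leaving out mitochondrial and ribosomal protein genes gave 532 and 483 and raised *Cd4* to 248 CPM, because the total is smaller. The median of the CD4 lineage list (3.67) was 2.89 with 20 or with 200 UMIs, 3.04 when CD8 T cells needed 1 CD8 UMI, 3.87 without the highest doublet scores or without cells with 5 or more *Lyz2* UMIs, and 3.86 with cells weighted equally. The regulatory T cell median (1.78) was 2.79 with 20 UMIs, 2.89 with 200, 1.55 with 1 CD8 UMI, 2.0 without doublets, 1.98 without the *Lyz2* cells, and 1.99 with equal weights. At the minimum of 50 UMIs these lists hold 6 and 7 genes compared. The medians of 2.89 equal the log2 ratio of *Izumo1r*, a member of both lists. Equal weights moved the effector and memory median to 0.18 and the cell cycle median to -0.20, which was -0.31 without the cycling cell. The share of cells with *Cd4* was 23.7% at 2000 UMIs and 62.4% unthinned. In thinned cells, *Foxp3* was found in 0.943% and *Ccr7* without *S100a4* in 25.2%, and the latter was 54.5% when 2 UMIs were required. The log2 ratio of *Lyz2* to CD8 T cells changed direction, to 0.58 without 4 CD8 T cells. Several ratios to CD8 T cells moved with the CD8 limit, and many of these genes had few UMIs in CD8 T cells. With 1 CD8 UMI the log2 ratio was 3.46 for *Cd4*, 3.59 for *Cd40lg*, 3.01 for *Ly6c1*, 3.63 for *St8sia6*, 3.28 for *Maf*, 3.22 for *Zbtb7b*, 2.98 for *Pdlim4*, 2.83 for *Foxp3*, and 1.51 for *Ly6a*. With 4 it was 8.74 for *Cd4*, 8.20 for *Ly6c1*, 7.45 for *Pdlim4*, and 5.82 for *Cd200*, each against 1 UMI, and 6.42 for *Cd40lg*, against 2. For *Zbtb7b*, *St8sia6*, and *Foxp3* the ratio with 4 was 4.37, 5.33, and 3.89, little changed from 4.44, 5.40, and 3.96 with 2. *Zbtb7b* was at 6.42 without doublets and 6.41 without the *Lyz2* cells, each against 1 UMI, and *S100a4* was between 2.06 and 2.40 with doublets or *Lyz2* cells removed or with equal weights. Equal weights also gave 3.57 for *Ikzf2*, 1.33 for *Igfbp4*, -1.20 for *Dapl1*, and -2.40 for *Lyz2*, which was -0.92 without doublets. The alternatives for the tendon and bone marrow were not run, since fewer than 50 cells met the rule there. No paired analysis was possible because each tissue had 1 library. With 1 library, differences between mice and between preparations could not be seen, and shares of cells with a UMI depend on depth. A gene at 1 UMI in a cell of median depth stands for 126 CPM.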
